A study of Mus musculus with 16 samples.

Results

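Haemoglobin RNA and the erythroid haem enzyme were followed through 5 genes, Hba-a1, Hba-a2, Hbb-bs, Hbb-bt and Alas2, taken by name together with all of their transcripts. They were 5 of 55266 genes and 12 of 142435 transcripts in the deposited tables, and all 12 transcripts had a count in at least 1 deep library. The libraries came from frontal cortex (FC) and cerebellum (Cere) of adult Upf3b-null mice, called Upf3b-KO, and of their littermate controls, called Ctrl, with 4 libraries for each tissue and genotype. The form of the null allele, the strain, the sex and the age in weeks were not given in the sources used here, and neither was perfusion of the mice. Both tissues were taken from the same mice, 4 of each genotype, but the labels do not tie a cortical to a cerebellar library, so tests between tissues and of the interaction treat libraries of 1 mouse as independent. The p-values measure only the spread between these libraries, which may be technical.

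Adult haemoglobin is a tetramer of alpha chains, encoded by Hba-a1 and Hba-a2, and beta chains, encoded in the annotation by Hbb-bs and Hbb-bt, the adult pair of the single-type mouse beta haplotype. The beta haplotype of these mice is not known, since their strain was not given. Each chain holds a haem group, and Alas2 encodes the erythroid 5-aminolevulinate synthase that makes the first intermediate of haem in red cell precursors. Young red cells that have lost the nucleus still carry these RNAs, so brain tissue with blood in it contains them, and globin RNA has also been described in some neurons and glia. Upf3b encodes an adaptor of nonsense-mediated RNA decay (NMD), which degrades a subset of messenger RNAs, classically those with an exon junction well downstream of the stop codon (dEJ).

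The 15 deep libraries held 27660100 to 35238700 counts, so that 3 counts, taken as the detection floor, corresponded to 0.0851 to 0.108 CPM (counts-per-million, a count divided by the library total). Upf3b-KO library 1 of the cerebellum held 64981 counts, for which the floor is 46.2 CPM, and was left out, so that this group had 3 libraries. Upf3b was at 14.8 ± 0.637 CPM (SD, n = 4) in Ctrl and 0.559 ± 0.257 CPM (n = 4) in Upf3b-KO frontal cortex, and at 22.7 ± 1.23 CPM (n = 4) and 0.737 ± 0.198 CPM (n = 3) in cerebellum. The summed level of 5 frontal cortex markers was 294 to 347 CPM in cortical and 25.2 to 32.9 CPM in cerebellar libraries. The summed level of 6 cerebellar markers was 8.98 to 14.2 CPM in cortical libraries, 3547 to 3567 CPM in Ctrl cerebellum and 1827 to 1843 CPM in Upf3b-KO cerebellum.

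The alpha genes lie on chromosome 11 and the beta genes on chromosome 7. On the GRCm39 build, the main transcript of Hba-a1 (ENSMUST00000093209) spans chr11:32233511-32234504 and that of Hba-a2 (ENSMUST00000093207) chr11:32246396-32247298, both on the plus strand. The main transcript of Hbb-bs (ENSMUST00000023934) spans chr7:103475739-103477169 and that of Hbb-bt (ENSMUST00000098192) chr7:103461730-103463203, both on the minus strand. That of Alas2 (ENSMUST00000066337) spans chrX:149330371-149353634 on the plus strand and overlaps the antisense genes Apex2 and Mir3620. Hbb-bs overlaps the antisense gene Gm74438. No source used here says if strand entered the counting, and without it reads of overlapping stretches cannot be told apart.

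Since the 5 genes moved together in the comparisons given further on, the 150 bases just upstream of the annotated start of each main transcript are shown, read 5′ to 3′ from GRCm39. They are chr11:32233361-32233510 for Hba-a1, chr11:32246246-32246395 for Hba-a2, chr7:103477170-103477319 for Hbb-bs (minus strand), chr7:103463204-103463353 for Hbb-bt (minus strand) and chrX:149330221-149330370 for Alas2. Capitals mark, on either strand, the letters CCAAT (core of the element read by NF-Y), CACCC (Krüppel-like factors), TATAA (TATA-binding protein) or GATAA (GATA factors).
Hba-a1: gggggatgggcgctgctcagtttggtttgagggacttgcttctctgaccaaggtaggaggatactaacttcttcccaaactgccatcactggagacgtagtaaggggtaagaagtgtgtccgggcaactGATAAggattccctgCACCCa
Hba-a2: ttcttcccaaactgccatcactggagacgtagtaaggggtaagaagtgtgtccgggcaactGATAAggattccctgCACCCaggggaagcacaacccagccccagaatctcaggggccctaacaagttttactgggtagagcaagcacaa
Hbb-bs: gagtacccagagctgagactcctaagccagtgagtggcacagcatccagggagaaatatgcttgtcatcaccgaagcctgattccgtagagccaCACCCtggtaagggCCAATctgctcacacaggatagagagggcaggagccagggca
Hbb-bt: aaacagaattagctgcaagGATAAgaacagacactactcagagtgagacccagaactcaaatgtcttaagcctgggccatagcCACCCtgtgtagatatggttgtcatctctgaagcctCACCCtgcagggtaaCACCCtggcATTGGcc
Alas2: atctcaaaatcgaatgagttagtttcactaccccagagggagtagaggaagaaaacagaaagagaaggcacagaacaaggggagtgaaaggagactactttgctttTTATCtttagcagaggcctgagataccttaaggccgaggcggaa
GATAA was present in 4 of the 5 windows, against 12.7% of 21580 windows of the same length upstream of protein-coding genes. CACCC was in 4 of 5 windows, against 39.5%, and CCAAT in 2 of 5, against 27.7%. TATAA was in none of the 5 and in 13.1% of all windows, and none of the matches overlapped another. The annotated starts of the alpha genes do not lie at matching places, since the same GATAA starts 21 bases upstream in Hba-a1 and 89 bases upstream in Hba-a2, and the 82 bases before the start of Hba-a1 recur with 0 mismatches in the window of Hba-a2. In the beta pair, CCAAT starts 42 bases upstream in Hbb-bs, while Hbb-bt holds it on the opposite strand alone, 3 to 7 bases upstream. The starts come from GENCODE vM39, a later annotation than the one behind the counts, and the counts of windows with a motif depend on them for both pairs. These matches describe the letters and not the binding of any factor.

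The paralogs of each pair are near copies, which bears on every value given per gene. The coding sequences of Hba-a1 and Hba-a2 are 429 bases long and differ at 1 base, and those of Hbb-bs and Hbb-bt are 444 bases long and also differ at 1 base. The 60 coding bases that end with the difference are shown for each gene, with the differing base in capitals. They lie at chr11:32234284-32234343 and chr11:32247101-32247160 for the alpha pair and at chr7:103475899-103475958 and chr7:103461890-103461949 (minus strand) for the beta pair.
Hba-a1: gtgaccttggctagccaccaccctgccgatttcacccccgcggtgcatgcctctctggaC
Hba-a2: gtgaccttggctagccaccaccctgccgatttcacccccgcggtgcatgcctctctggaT
Hbb-bs: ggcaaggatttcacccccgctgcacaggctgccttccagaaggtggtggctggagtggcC
Hbb-bt: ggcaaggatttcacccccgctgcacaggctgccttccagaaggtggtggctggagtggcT
Along the main mRNA, 79.5% of the 50-base windows of Hba-a1 and 91.6% of those of Hba-a2 recur unchanged in the other alpha gene. For Hbb-bs and Hbb-bt the shares were 62.0% and 58.2%. Alas2 shared none of its 1988 windows with a transcript of any other gene in the tables. How counts were split within a pair therefore rests on the model that assigned the reads, and the value of a single alpha or beta gene is less certain than the sum of its pair.

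Haemoglobin RNA was present in every library. Together the 4 globin genes made up 0.0482% to 0.0496% of the counts in Ctrl frontal cortex and 0.0416% to 0.0426% in Upf3b-KO frontal cortex. In cerebellum they made up 0.124% to 0.130% of the counts in Ctrl and 0.237% to 0.241% in Upf3b-KO, so that the 4 groups did not overlap. In tissue, fewer cells of a type and less RNA per cell cannot be told apart. Per kilobase of transcript, the order of the genes was the same in the 4 groups, with Hbb-bs highest, then Hba-a2, Hba-a1, Hbb-bt and Alas2. In Ctrl frontal cortex these levels were 370 ± 7.81, 206 ± 5.86, 103 ± 4.06, 50.7 ± 3.59 and 3.73 ± 0.355 CPM per kb (SD, n = 4), each apart from its neighbours by more than their spread.

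**Figure D1:**
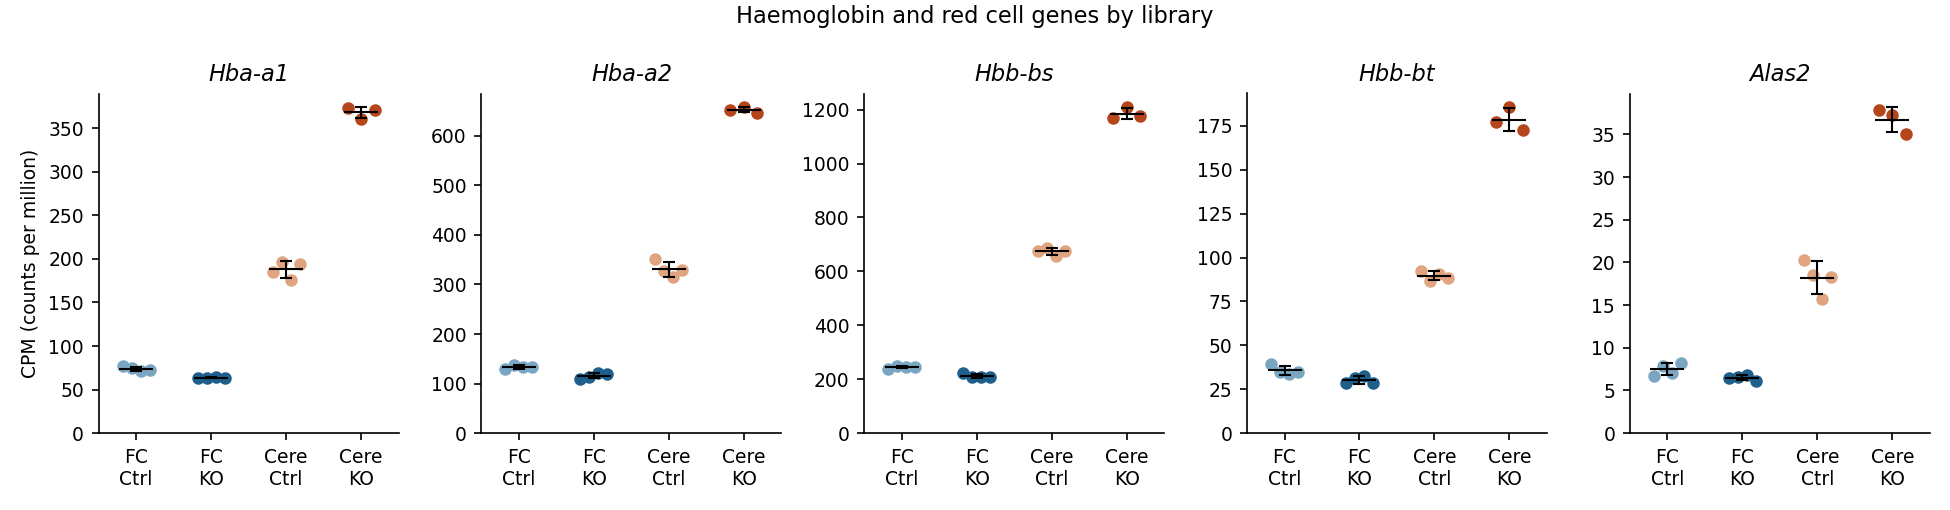
Level of each gene in CPM (y axis, linear from 0, a scale of its own in each panel) in the 15 deep libraries, by tissue and genotype (FC, frontal cortex; Cere, cerebellum; KO, Upf3b-KO). Points are libraries, and black bars are means with SD. The Upf3b-KO cerebellum lay highest in every panel, and in FC the KO points lay below the Ctrl points except for Alas2, where they overlapped.

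The alpha genes were slightly lower in Upf3b-KO than in Ctrl frontal cortex and 1.89- and 1.91-fold higher in cerebellum. In frontal cortex, Hba-a1 was at 76.7, 74.6, 71.5 and 73.0 CPM in Ctrl and at 63.3, 63.7, 64.9 and 63.1 CPM in Upf3b-KO. In cerebellum, it was at 185, 197, 175 and 194 CPM in Ctrl and at 373, 361 and 370 CPM in Upf3b-KO. All Upf3b-KO libraries thus lay below all Ctrl libraries in the cortex and above them in the cerebellum. In edgeR's quasi-likelihood test, with p adjusted over all genes by Benjamini-Hochberg, the log2 fold change of Hba-a1 was -0.29 ± 0.03 (SE, adjusted p = 2.83e-08) in frontal cortex and 0.92 ± 0.03 (adjusted p = 1.62e-15) in cerebellum. Hba-a2 was at 128, 138, 134 and 134 CPM in Ctrl and at 110, 113, 121 and 119 CPM in Upf3b-KO frontal cortex. In cerebellum, Hba-a2 was at 352, 327, 315 and 328 CPM in Ctrl and at 653, 658 and 647 CPM in Upf3b-KO. Its groups were separated in the same manner, with log2 fold changes of -0.28 ± 0.03 (adjusted p = 3.22e-08) and 0.93 ± 0.02 (adjusted p = 8.68e-17).

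The beta genes moved the same way in each tissue. In frontal cortex, Hbb-bs was at 238, 249, 246 and 247 CPM in Ctrl and at 222, 207, 208 and 209 CPM in Upf3b-KO. In cerebellum, Hbb-bs was at 675, 689, 658 and 676 CPM in Ctrl and at 1170, 1210 and 1178 CPM in Upf3b-KO. The groups did not overlap in either tissue, and Hbb-bs had the smallest cerebellar difference of the 5 genes, with log2 fold changes of -0.29 ± 0.02 (adjusted p = 3.31e-10) in frontal cortex and 0.76 ± 0.02 (adjusted p = 3.20e-18) in cerebellum. Hbb-bt was at 39.4, 34.8, 33.8 and 34.8 CPM in Ctrl and at 28.4, 31.6, 32.6 and 28.6 CPM in Upf3b-KO frontal cortex. In cerebellum, Hbb-bt was at 92.4, 86.7, 90.7 and 88.3 CPM in Ctrl and at 177, 186 and 173 CPM in Upf3b-KO. Again no Upf3b-KO library lay among the Ctrl libraries, and the log2 fold changes were -0.31 ± 0.05 (adjusted p = 4.58e-05) and 0.95 ± 0.03 (adjusted p = 9.66e-16).

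Alas2, the haem synthesis enzyme of red cell precursors, was far lower than the globins but followed them. In frontal cortex it was at 6.75, 7.89, 7.06 and 8.24 CPM in Ctrl and at 6.45, 6.62, 6.84 and 6.10 CPM in Upf3b-KO. In cerebellum it was at 20.3, 18.5, 15.7 and 18.3 CPM in Ctrl and at 37.9, 37.2 and 35.1 CPM in Upf3b-KO. The cortical groups overlapped and the cerebellar groups did not. The log2 fold change was -0.27 ± 0.10 (adjusted p = 0.0219) in frontal cortex and 0.96 ± 0.07 (adjusted p = 1.90e-10) in cerebellum. The cortical adjusted p was over 0.05 when Ctrl library 2 (0.0573), Ctrl library 4 (0.0766) or Upf3b-KO library 4 (0.0605) was left out, and to 0.0944 when libraries were scaled by their totals alone. For every 100 globin counts there were 1.53 ± 0.130 Alas2 counts in Ctrl and 1.54 ± 0.0716 in Upf3b-KO frontal cortex (n = 4 each), and 1.42 ± 0.120 (n = 4) and 1.54 ± 0.0568 (n = 3) in cerebellum.

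Read against the study's threshold, a change over 2-fold at an adjusted p below 0.01, none of the 5 genes was called in either tissue by edgeR or by DESeq2, although all 5 had an unadjusted p under 0.05 in both, as did 57.7% of all genes in frontal cortex and 67.4% in cerebellum. In frontal cortex 10.2% of the 18218 genes tested passed it, and in cerebellum 13.2% of 17785. Without the fold limit, at an adjusted p under 0.05, all 5 genes were lower in Upf3b-KO frontal cortex, as were 25.3% of all genes tested. At over 1.5-fold with an adjusted p below 0.01, all 5 were higher in Upf3b-KO cerebellum, as were 15% of all genes tested. The cortical folds were 0.805 to 0.827 and the cerebellar ones 1.70 to 1.94. The median log2 fold change of all genes tested was 0.00 in frontal cortex and 0.01 in cerebellum. With no factor for composition, the median moved to 0.08 and 0.06, and the members lay at -0.24 to -0.20 and 0.81 to 1.01.

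**Figure D2:**
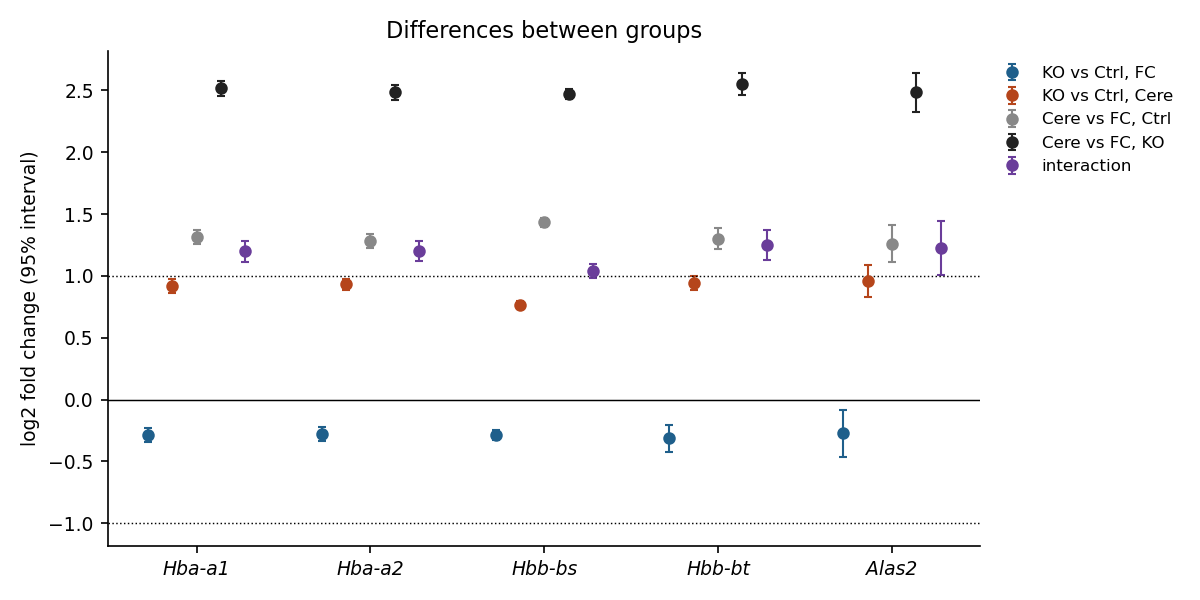
Log2 fold change (y axis) of each gene (x axis) in 5 comparisons, from fits across all genes, with 95% intervals as bars. Dotted lines mark a 2-fold change. The KO vs Ctrl difference lay between -0.31 and -0.27 in frontal cortex and between 0.76 and 0.96 in cerebellum, and the interaction between 1.04 and 1.25.

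The cerebellum held more globin RNA than frontal cortex in both genotypes. In Ctrl, the 5 log2 differences were 1.26 to 1.43, and all 5 genes were called higher in cerebellum, against 8.74% of the 19831 genes tested. In Upf3b-KO, the differences were 2.47 to 2.55 and all 5 were called, against 6.83% of genes. Hbb-bs had the largest regional difference in Ctrl, 1.43 ± 0.02 (adjusted p = 3.50e-28), and Hbb-bt the largest in Upf3b-KO, 2.55 ± 0.05 (adjusted p = 2.41e-25). No cerebellar library overlapped a cortical library of the same genotype for any of the 5 genes. The share of all genes with groups separated in this way, by tissue or by genotype, was not counted.

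The difference between Upf3b-KO and Ctrl libraries was itself unlike in the 2 tissues. The interaction, the log2 difference between Upf3b-KO and Ctrl in cerebellum minus that in frontal cortex, was 1.20 ± 0.04 for Hba-a1 (adjusted p = 4.71e-18), 1.20 ± 0.04 for Hba-a2 (adjusted p = 1.48e-18) and 1.04 ± 0.03 for Hbb-bs (adjusted p = 1.37e-20). It was 1.25 ± 0.06 for Hbb-bt (adjusted p = 8.27e-15) and 1.22 ± 0.11 for Alas2 (adjusted p = 8.44e-10). All 5 were called, against 6.36% of genes called in this direction. These 5 values share the same libraries and are not independent of each other.

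Libraries of a group lay close together. The coefficient of variation of the summed globin level was 1.20% and 1.09% in Ctrl and Upf3b-KO frontal cortex and 2.33% and 1.07% in cerebellum. For single genes it ran from 0.830% to 10.5%, and counting alone would give 0.508% to 6.96%. Hba-a1 (1.24% against 2.22%) and Alas2 (4.84% against 6.96%) in Upf3b-KO frontal cortex varied by less than counting would give. No 2 libraries of a group agreed within sampling noise over all genes, with a mean chi-square per gene of 2.74 to 3.89 over 21 pairs, where counting noise gives 1.

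The ratio of Hbb-bs to Hbb-bt counts was compared because it does not depend on depth or scaling. It was 6.03, 7.16, 7.29 and 7.10 in Ctrl and 7.81, 6.56, 6.36 and 7.33 in Upf3b-KO frontal cortex. The cerebellar ratio was 7.31, 7.94, 7.25 and 7.66 in Ctrl and 6.59, 6.52 and 6.82 in Upf3b-KO. The cortical groups overlapped in part, with 2 Upf3b-KO ratios above and 1 Ctrl ratio below all of the other group, whereas the 3 cerebellar Upf3b-KO ratios lay below all 4 Ctrl ratios. The difference in log2 ratio was 0.02 ± 0.09 (SE) in frontal cortex (two-sided exact permutation p = 0.857) and -0.18 ± 0.04 in cerebellum (exact p = 0.0571). The latter is the smallest p that 4 against 3 libraries allow, and adjusted over the 6 ratio comparisons it was 0.171, so the difference did not pass a test. Counts were not scaled for length here. Per kilobase, the mean ratio was 7.33 in Ctrl and 7.45 in Upf3b-KO frontal cortex, and 8.0 in Ctrl and 7.06 in Upf3b-KO cerebellum.

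The ratio of Hba-a1 to Hba-a2 lay at 0.534 to 0.597 in Ctrl and 0.529 to 0.575 in Upf3b-KO frontal cortex. The cerebellar ratio lay at 0.526 to 0.602 in Ctrl and at 0.549 to 0.573 in Upf3b-KO. Groups overlapped in both tissues, with log2 differences of -0.01 ± 0.05 in each (exact permutation p = 0.914 and 0.857). Alpha to beta counts stood at 0.733 to 0.748 in Ctrl and 0.693 to 0.773 in Upf3b-KO frontal cortex, and at 0.656 to 0.699 and 0.730 to 0.761 in cerebellum. The alpha to beta ratio was therefore higher in all 3 Upf3b-KO than in all 4 Ctrl libraries of the cerebellum, by 0.14 ± 0.03 on the log2 scale (exact permutation p = 0.0571, adjusted 0.171), and its cortical groups overlapped (difference 0.01 ± 0.04, exact p = 0.943).

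**Figure D3:**
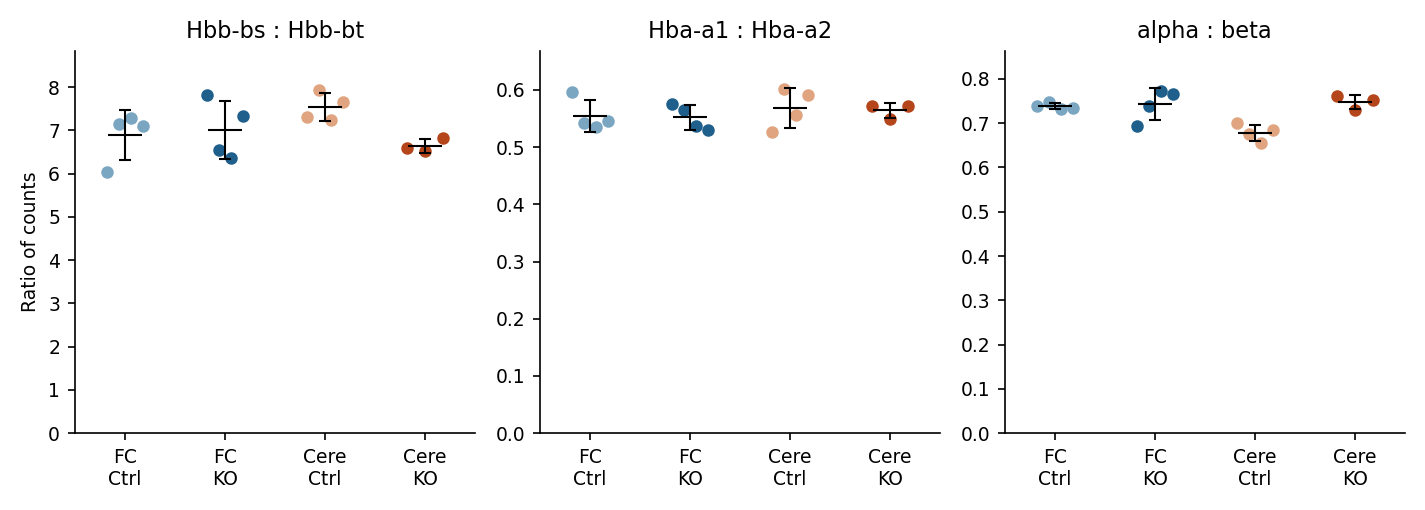
Ratios of counts within each deep library (y axis, linear from 0) for Hbb-bs to Hbb-bt, Hba-a1 to Hba-a2, and alpha to beta genes, by tissue and genotype. Points are libraries and black bars are means with SD. In cerebellum the Upf3b-KO points lay below Ctrl for Hbb-bs to Hbb-bt (6.52 to 6.82 against 7.25 to 7.94) and above Ctrl for alpha to beta, and the other panels overlapped.

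At the transcript level, the main coding transcripts of Hba-a2, Hbb-bs and Hbb-bt held 99.8% to 100% of the counts of their genes over the deep libraries, that of Hba-a1 held 92.9% and the main one of Alas2 81.6%. None of the 12 transcripts carried the annotated type for nonsense-mediated decay, and none of the 6 with a complete coding end had a dEJ, an exon junction at least 50 bases beyond the stop codon. In the fit across all transcripts, the main Alas2 transcript (ENSMUST00000066337) rose in Upf3b-KO cerebellum by a log2 fold change of 1.08 ± 0.12 (adjusted p = 0.000814). It was the 1 member transcript that passed the threshold there with edgeR, against 3.45% of 44388 transcripts called higher. Its adjusted p became 0.0391 with the low-depth library kept and 0.0152 with the replicate number as a block. The log2 fold changes of the 4 main globin transcripts were 0.81 to 0.99 in cerebellum, under the 2-fold limit. The main transcripts of Hba-a2 and Hbb-bt lay close to that limit and were called with the block (1.01 each, adjusted p = 0.00122 and 0.00127) and without Ctrl library 1 (1.004 each), and that of Hbb-bt also without Upf3b-KO library 2 (1.0001) or 4 (1.015). The interaction was called for the main transcripts of all 5 genes, at 1.08 to 1.30, against 2.22% of 53206 transcripts. For Alas2 that call had an adjusted p of 0.0096 and was lost when 13 of the 15 libraries were left out singly, with adjusted p values up to 0.0324. It was also lost with the low-depth library kept (0.91, adjusted p = 0.262), with the block (adjusted p = 0.0646), with median-of-ratios scaling (0.0115), with no filter (0.0125) and with totals alone (0.0147). With the low-depth library kept, the main Hbb-bs transcript fell under the 2-fold limit as well (0.92, adjusted p = 0.00817).

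Minor transcripts varied more between libraries than the genes did. A retained-intron transcript of Hba-a1 (ENSMUST00000142555, chr11:32233811-32234438) was at 6.98, 0.157, 3.92 and 3.07 CPM in Ctrl and 2.77, 2.58, 5.75 and 8.76 CPM in Upf3b-KO frontal cortex. Its cerebellar level was 27.0, 8.16, 4.92 and 9.07 CPM in Ctrl and 36.5, 28.1 and 21.6 CPM in Upf3b-KO. The spread within groups was wide, and neither genotype difference passed the test, with an adjusted p of 0.182 in cerebellum. Without Ctrl library 1 the cerebellar log2 difference moved from 1.22 ± 0.56 to 1.95 (adjusted p = 0.00584). A second coding form of Alas2 (ENSMUST00000112715), 1992 bases long against 2037 in the main one, was at 2.01, 2.84, 0.935 and 1.37 CPM in Ctrl frontal cortex. In Upf3b-KO frontal cortex it was listed at 0 in libraries 1, 2 and 3 and at 2.07 CPM in library 4. That difference did not pass the test (adjusted p = 0.548), and without library 4 the group would be at 0 throughout (adjusted p = 0.00430). In cerebellum the second Alas2 form was at 3.29 to 5.22 CPM in Ctrl and 4.47 to 8.95 CPM in Upf3b-KO, again with overlap. Because both forms share most of their sequence, the split between them is an estimate of the model, and the sum over Alas2 is the firmer value.

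A retained-intron form of Hbb-bs (ENSMUST00000131960, chr7:103475935-103476932) was at 0.533 to 1.48 CPM in Ctrl and 1.97 to 2.70 CPM in Upf3b-KO cerebellum, without overlap, and its log2 fold change was 1.34 ± 0.38 (adjusted p = 0.0456), which was called by DESeq2 (1.35, adjusted p = 0.00280). It lay at 0.202 to 1.38 CPM in Ctrl and 0 to 0.634 CPM in Upf3b-KO frontal cortex. The least abundant Hbb-bs transcript (ENSMUST00000153218) was counted in the 3 Upf3b-KO cerebellar libraries alone, at 0.0902 to 0.452 CPM. One further transcript of Hba-a2 (ENSMUST00000147010) and the remaining pair of Alas2 (ENSMUST00000134670 and ENSMUST00000142474) had a count in 3, 3 and 1 of the deep libraries and were too low to test.

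**Figure D4:**
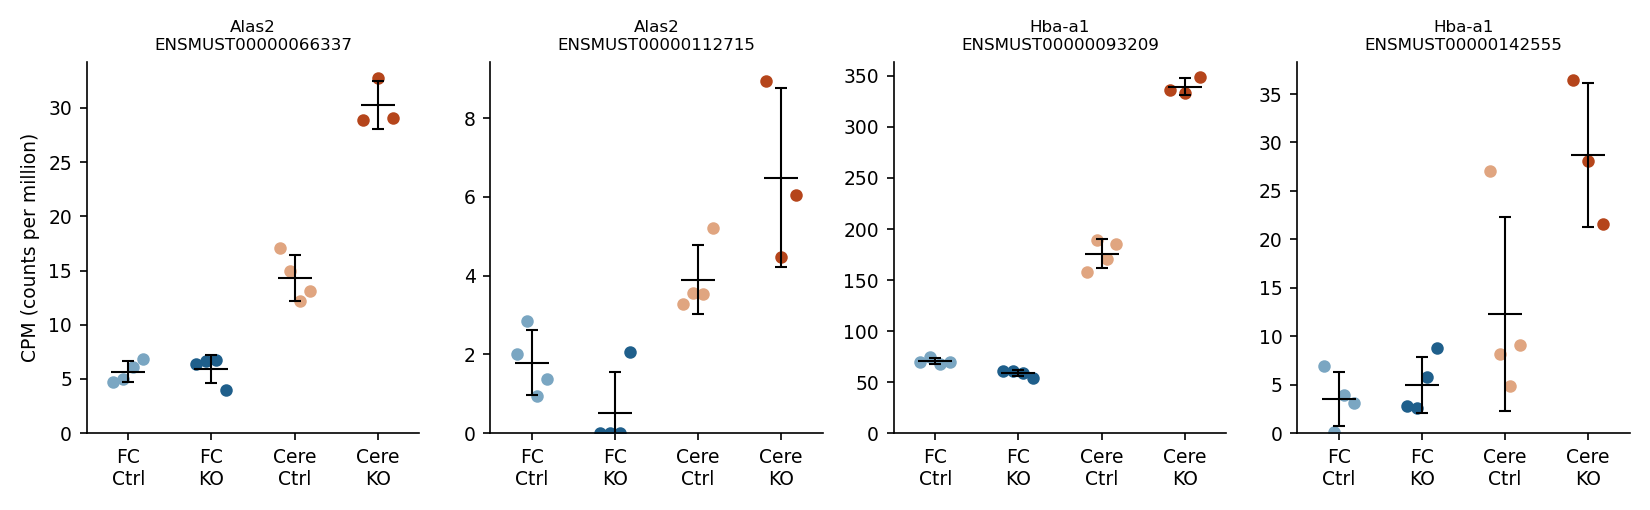
CPM (y axis, linear from 0, a scale of its own in each panel) of the 2 main Alas2 and the 2 Hba-a1 transcripts in the deep libraries by tissue and genotype, with means and SD in black, the SD bar cut at 0. The main transcripts (ENSMUST00000066337 and ENSMUST00000093209) separated by genotype in cerebellum, while the second Alas2 form, at 0 in 3 of 4 cortical Upf3b-KO libraries, and the retained-intron Hba-a1 form scattered.

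The lists of other red cell genes are given by their counts and medians. Of 39 further genes for the red cell membrane and cytosol, haem synthesis and erythroid transcription factors, 38 were in the tables. In frontal cortex 23 were tested, of which 1 was called higher and 1 lower, with a median log2 fold change of 0.09. In cerebellum 27 were tested, of which 2 were called higher and 1 lower, with a median of 0.11. Among all genes tested, 10.2% and 13.2% were called in either direction, and the medians were 0.00 and 0.01. The counts thus lay near those of all genes, and no test compared the lists with the 5 haemoglobin and haem genes, of which none was called at this threshold.

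Among membrane and cytosol genes, the median log2 fold change was 0.10 over the 8 tested in frontal cortex (-0.33 to 2.93) and 0.24 over the 12 tested in cerebellum (-0.70 to 1.91), beside 0.00 and 0.01 over all genes. In each tissue 1 was called, near the 10.2% and 13.2% of all genes called. At an adjusted p below 0.01 whatever the fold, 4 of the 12 were higher and 2 lower in Upf3b-KO cerebellum. The share of all genes was not taken for that count. Slc4a1, the band 3 anion exchanger and a main protein of the red cell membrane, was at 1.48 to 2.44 CPM in Ctrl and 1.59 to 2.10 CPM in Upf3b-KO cerebellum, with a log2 fold change of -0.13 ± 0.21 (adjusted p = 0.625). Rhd, the Rh blood group gene, was called higher in Upf3b-KO cerebellum at 1.91 ± 0.55 (adjusted p = 0.00508), from 0.0289 to 0.235 up to 0.353 to 0.908 CPM. Hemgn, hemogen, a nuclear protein of blood precursors, was called higher in frontal cortex at 2.93 ± 0.41 (adjusted p = 3.46e-06), from 0.0310 to 0.435 up to 1.27 to 1.88 CPM. Each was tested between genotypes in that tissue alone, being too low in the other, and both lay far under the level of the globins. Rhd and Hemgn both passed the count filter only through the Upf3b-KO libraries, where they were higher, so their calls are not independent of the filter.

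Of the 11 haem synthesis genes, all were tested in both tissues, and 1 was called in each, near the 10.2% and 13.2% of all genes called. Abcb10, a mitochondrial transporter needed for haem production, fell by 1.22 ± 0.05 (adjusted p = 5.25e-15) on the log2 scale in frontal cortex and by 1.18 ± 0.05 (adjusted p = 1.19e-13) in cerebellum. Alas1, the synthase of non-erythroid cells, had log2 fold changes of 0.17 ± 0.03 and 0.18 ± 0.04, and Fech, ferrochelatase, of -0.40 ± 0.03 and -0.19 ± 0.03, in frontal cortex and cerebellum. Of 8 erythroid transcription factors and the erythropoietin receptor, 4 were tested. Tal1, a factor of blood and endothelial development, was called higher in cerebellum at 2.43 ± 0.45 (adjusted p = 0.000117), from 0.0579 to 0.264 up to 0.768 to 1.11 CPM. There Tal1 passed the count filter only through the Upf3b-KO libraries, where it was higher. Its interaction was called at 2.63, with the sign of the globins. Epor, the erythropoietin receptor, had the opposite signs to the globins, at 0.85 ± 0.11 (adjusted p = 5.87e-07) in frontal cortex and -0.61 ± 0.16 (adjusted p = 0.00257) in cerebellum, both under the 2-fold limit, and its interaction was called at -1.47 ± 0.19 (adjusted p = 3.94e-07). Lmo2 was at 0.12 ± 0.06 (adjusted p = 0.111) and -0.39 ± 0.06 (adjusted p = 1.12e-05), and Zfpm1 at -0.23 ± 0.18 (adjusted p = 0.301) and -0.05 ± 0.21 (adjusted p = 0.847). Gata1, a defining erythroid factor, was at 0 to 0.0882 CPM in the deep libraries and was not tested.

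Of 9 other globin genes, 2 were tested between genotypes. Cygb, cytoglobin, a globin of many tissues, was at 45.6 to 51.0 CPM in frontal cortex and 59.4 to 82.1 CPM in the deep cerebellar libraries, with log2 fold changes of -0.10 ± 0.04 (adjusted p = 0.0413) and 0.25 ± 0.04 (adjusted p = 2.00e-05), neither of them called. The embryonic genes Hbb-bh1, Hbb-bh2 and Hba-x had 0 counts in all 15 deep libraries, which allows up to 0.108 CPM in the shallowest of them. Hbb-y, a further embryonic gene, was at 0 to 0.0606 CPM, also below the level of 3 counts, and was not tested. Ngb, the neuronal globin neuroglobin, was at 0.116 to 0.217 CPM in Ctrl and 3.70 to 4.76 CPM in Upf3b-KO cerebellum (4.71 ± 0.25, adjusted p = 4.56e-12), whereas it was at 8.20 to 9.10 and 6.89 to 8.99 CPM in frontal cortex (-0.17 ± 0.09, adjusted p = 0.128). In the cerebellar fit Ngb passed the count filter through the Upf3b-KO libraries. Of 11 genes for the clearance of haemoglobin and haem, 10 were tested in frontal cortex and 9 in cerebellum, and none was called by edgeR or DESeq2, with 3 and 6 at an unadjusted p under 0.05, which 57.7% and 67.4% of all genes reached. Fth1, ferritin heavy chain, an iron store, had the signs of the globins in both tissues, at -0.21 ± 0.01 (adjusted p = 1.72e-14) and 0.56 ± 0.01 (adjusted p = 5.70e-18), under the 2-fold limit. Ftl1, the ferritin light chain, was lower in both, at -0.16 ± 0.02 (adjusted p = 2.57e-08) and -0.29 ± 0.02 (adjusted p = 3.48e-10).

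Between tissues in Ctrl, Slc4a1 was higher in cerebellum by 3.39 ± 0.32 (adjusted p = 6.07e-10), and 4 of the 13 membrane and cytosol genes tested were called higher and 0 lower, against 8.74% and 16.8% of all genes. In Upf3b-KO 5 were called higher and 2 lower, against 6.83% and 15% of all genes, and Slc4a1 was higher by 2.80 ± 0.32 (adjusted p = 2.41e-08). At 0.120 to 0.387 CPM in frontal cortex, Slc4a1 passed the count filter through the cerebellum. In the interaction none of the 13 was called by edgeR and 1 by DESeq2, with 7 at an unadjusted p under 0.05, beside 53% of all genes.

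**Figure D5:**
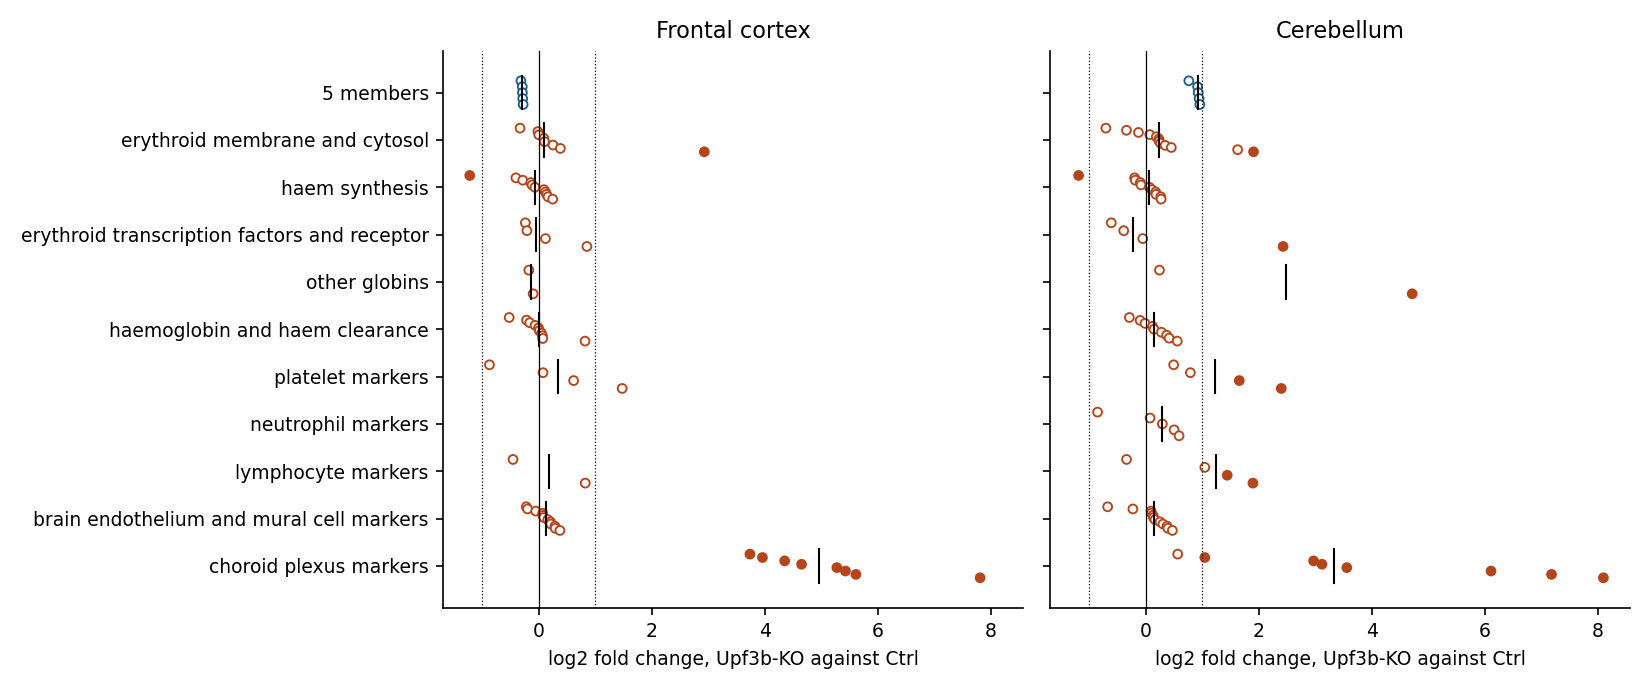
Log2 fold change of Upf3b-KO against Ctrl (x axis) for each tested gene of the lists named at the left, in frontal cortex and cerebellum. Filled points were called and open points were not, black ticks are list medians and dotted lines mark a 2-fold change. The 5 members lay close together and under 2-fold in both panels, and the choroid plexus markers spread over 3.74 to 7.81 in the cortical panel and 0.57 to 8.10 in the cerebellar one.

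Markers of other cells of blood and vessels were read in the same libraries. Of the 12 markers of brain endothelium and mural cells, 0 were called in either tissue by edgeR or DESeq2, against 10.2% and 13.2% of all genes called. At an unadjusted p under 0.05 there were 9 of 12 in frontal cortex, beside 57.7% of all genes, and 8 of 12 in cerebellum, beside 67.4%. Their summed level was 332 to 341 CPM in Ctrl and 369 to 377 CPM in Upf3b-KO frontal cortex, and 265 to 273 and 285 to 299 CPM in cerebellum. Between tissues in Ctrl, 10 of 12 were lower in cerebellum at an adjusted p below 0.01 whatever the fold, as were 33.2% of all genes, and none was called at 2-fold. Of 8 platelet markers, 4 were tested in each tissue, and in cerebellum Itga2b (1.66 ± 0.29, adjusted p = 5.90e-05) and Ppbp (2.40 ± 0.38, adjusted p = 1.80e-05) were called higher, as were 10.3% of all genes there. Ppbp, at 0.132 to 0.506 CPM in Ctrl cerebellum, passed the count filter through the Upf3b-KO libraries. The summed platelet level was 1.84 to 2.30 CPM in Ctrl and 4.66 to 6.61 CPM in Upf3b-KO cerebellum, and 3.26 to 3.70 and 4.12 to 5.74 CPM in frontal cortex.

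Of the 7 lymphocyte markers, 4 were tested in cerebellum, and Cd3e (1.44 ± 0.45, adjusted p = 0.00879) and Ms4a1 (1.90 ± 0.51, adjusted p = 0.00330) were called higher in Upf3b-KO by edgeR, and 1 of them by DESeq2, beside the same 10.3% of all genes. In Ctrl cerebellum Cd3e was at 0.145 to 0.206 CPM and Ms4a1 at 0.0330 to 0.260 CPM. Both passed the count filter through the Upf3b-KO libraries alone, where they were higher. The lymphocyte sum was 1.06 to 1.65 CPM in Ctrl and 2.07 to 2.73 CPM in Upf3b-KO cerebellum, and 0.748 to 1.47 and 1.22 to 1.58 CPM in frontal cortex. The 8 neutrophil markers summed to 3.76 to 5.0 and 4.75 to 6.27 CPM in cerebellum and to 0.186 to 0.485 and 0.983 to 1.63 CPM in frontal cortex, and of the 5 tested between genotypes in cerebellum none was called by edgeR or DESeq2, with 1 at an unadjusted p under 0.05, beside 67.4% of all genes. Between tissues, 5 of 5 neutrophil markers tested were called higher in Ctrl cerebellum (median log2 difference 3.79) and 4 of 5 in Upf3b-KO cerebellum (median 1.87), against 8.74% and 6.83% of all genes. None of the 8 was tested between genotypes in frontal cortex. The 5 passed the count filter through the cerebellum, where they were higher, so these counts are not independent of the filter. Of the 8 choroid plexus markers, 8 were called higher in Upf3b-KO frontal cortex and 7 in Upf3b-KO cerebellum, against 9.16% and 10.3% of all genes. The choroid plexus sum was 15.5 to 16.5 CPM in Ctrl and 383 to 390 CPM in Upf3b-KO frontal cortex, and 31.5 to 35.2 and 216 to 221 CPM in cerebellum. Of the 6 cerebellar markers, 3 were called lower in Upf3b-KO cerebellum, against 2.86% of all genes. All 6 were lower there at an adjusted p below 0.01 whatever the fold, with log2 fold changes of -1.44 to -0.79. The part of the choroid plexus and cerebellar markers in the globin differences was not tested. The choroid plexus sum was higher in Upf3b-KO in both tissues, and the globin sum was higher in cerebellum and lower in frontal cortex.

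Over the 15 deep libraries, the genes whose log2 levels were most like the summed globins, among 15222 candidates averaging 1 CPM or more, were Etnk1, Atp5pb, Itih3, Pgm1 and Abat, with Pearson r of 0.995 to 0.996. Itih3 was at 40.1, 35.2, 109 and 162 CPM on average in Ctrl and Upf3b-KO frontal cortex and Ctrl and Upf3b-KO cerebellum, an order of groups that it shares with the globins by the choice of this measure. With group means removed, the most alike were Abhd8, Ndufa3, Selenow, Acsbg1 and Rab3a (r of 0.866 to 0.942). Each globin gene correlated with the sum of the other 3 at r of 0.996 to 0.999 in level but only -0.34 to 0.16 once group means were removed, and Alas2 with the 4 globins at 0.995 and 0.77. These correlations describe libraries that share 4 groups and carry no test.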

How the data were processed

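RNA of 16 tissue samples was depleted of ribosomal RNA, made into libraries with the SMART-Seq v4 PLUS kit and sequenced as read pairs. The authors aligned reads to GRCm39 with STAR (2.5.2b) and estimated transcripts with RSEM. What they deposited is a table of RSEM expected counts for 142435 Ensembl transcripts, without scaling for depth or length. No column was without a sample.

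Of these transcripts, 141102 matched GENCODE vM39 and were summed per gene, after which expected counts were rounded. CPM was scaled to all counts of a library. Comparisons used edgeR 4.0.16 in R 4.3.3 (limma 3.58.1), with filterByExpr (minimum count 10, total 15), TMM scaling, the quasi-likelihood test and p adjusted by Benjamini-Hochberg, over 4 against 4 cortical and 4 against 3 cerebellar libraries, and over all 15 deep libraries for tissue and interaction. The filter asks for the count in as many libraries as the smallest group holds, so a gene near the floor in a group could enter a test through another. The SE is the log2 fold change divided by the square root of F. Ratios were compared by two-sided exact permutation. Likeness used log2(CPM + 0.5). The members and gene lists were chosen with earlier results of these data known. Genes named from a list are those called with the smallest adjusted p, at most 4, and defining genes at 0, while Slc4a1 between genotypes, Alas1, Fech, Gata1, Epor, Lmo2 and Zfpm1 between genotypes, Cygb, Hbb-y, Fth1 and Ftl1 were picked after their values were seen. On simulated counts with 200 genes changed 3-fold, 200, 200 and 197 were recovered in the cortical, cerebellar and joint fits over 18203, 17603 and 18988 genes, with 0, 3 and 0 false calls. These changes were larger than the genotype differences of the members, so the simulation does not bear on calls near the 2-fold limit. Alternatives were DESeq2 1.42.0, median-of-ratios scaling, no or a stricter filter, other thresholds, 1 fit of 15 libraries, library sizes without the globins, the low-depth library kept, a replicate block and each library left out. Scaling by totals alone was added after the data were seen. EBSeq and IsoformSwitchAnalyzeR, used by the authors, were not run. Reads carried no molecular identifiers and are not independent molecules, so the intervals and floors reflect counting error alone.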

Additional observations from a re-analysis of the deposited data

Results flagged for a closer look

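In groups of 4, 3 of the 24 sets of values held a library far from the others by Dixon's criterion, which chance gives in about 1 of 20. Hbb-bs in Upf3b-KO library 1 of the frontal cortex was at 221.8 CPM, above the other 3 (207 to 209 CPM), with a gap of 0.871 of the range. Ctrl library 1 of the frontal cortex had the lowest Hbb-bs to Hbb-bt ratio, 6.03, with a gap of 0.847 of the range. The same library had the highest Hba-a1 to Hba-a2 ratio, 0.5969, with a gap of 0.834.

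The genotype difference differed between tissues by the interaction test for each of the 5 genes. On the log2 scale it was 1.199 for Hba-a1, 1.201 for Hba-a2, 1.041 for Hbb-bs, 1.25 for Hbb-bt and 1.224 for Alas2, cerebellum minus frontal cortex.

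Upf3b-KO library 1 of the cerebellum, which was left out of the reported comparisons and entered only where it is said to be kept, also lay above all Ctrl cerebellar libraries. It held 33 counts of Hba-a1, or 503.8 CPM (exact 95% Poisson interval 350 to 713), 51 of Hba-a2 or 788.8 CPM (584 to 1032), and 68 of Hbb-bs or 1041 CPM (813 to 1327), against Ctrl maxima of 197, 352 and 689 CPM. Hbb-bt had 9 counts or 143.9 CPM (63.3 to 263) and Alas2 4 counts or 61.56 CPM (16.8 to 158), intervals that include the Ctrl maxima of 92.4 and 20.3 CPM.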

How the results depend on the processing

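The 25 values of the member genes kept their direction under all alternatives. Of 255 values from other settings 238 stayed on the same side of the threshold, and of 300 with 1 library left out 299 did. Alas2 in cerebellum passed 2-fold with the replicate block (1.02), with totals alone (1.01) and without Ctrl library 1 (range 0.89 to 1.02 over left-out libraries). With a fold limit of 1.5 the cerebellar values of Hba-a1 (0.92), Hba-a2 (0.93), Hbb-bs (0.76), Hbb-bt (0.95) and Alas2 (0.96) passed, and without a fold limit so did those and the cortical values (-0.29, -0.28, -0.29, -0.31 and -0.27). With the low-depth library kept, the cerebellar log2 difference was -0.15 for Hbb-bs to Hbb-bt (exact permutation p = 0.0286), 0.28 for alpha to beta (p = 0.0286) and 0.034 for Hba-a1 to Hba-a2, which reversed, each including a library with 9 Hbb-bt counts. With the most abundant transcript alone, cortical alpha to beta reversed to -0.011. Leaving out libraries gave cortical ranges of -0.039 to 0.069 (Hbb-bs to Hbb-bt), -0.027 to 0.029 (Hba-a1 to Hba-a2) and -0.013 to 0.039 (alpha to beta), and cerebellar ranges of -0.20 to -0.16, -0.047 to 0.018 and 0.12 to 0.16. The 39 further red cell genes gave 11 cortical calls without a fold limit (2 as reported), and in cerebellum 5 without a filter, 1 with the stricter filter, 5 at 1.5-fold and 18 without a fold limit (3 as reported). The main Alas2 transcript (ENSMUST00000066337) in frontal cortex changed sign to -0.0074 in 1 fit of 15 libraries and to -0.0046 with the block, and ran from -0.074 to 0.15 over left-out libraries. The retained-intron Hbb-bs form (ENSMUST00000131960) between tissues in Ctrl ran from -0.0081 to 0.94. The causes were not tested.

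Same-numbered libraries did not deviate together (r of -0.04 to 0.06 in frontal cortex, -0.06 to 0.15 in cerebellum, -0.10 to 0.04 and -0.08 to -0.01 between tissues), so the number was not taken as a pairing. With the replicate block the interaction was 1.22 for Alas2 and 1.06 for Hbb-bs, the cerebellar Hbb-bs to Hbb-bt difference was -0.20 (exact sign-flip p = 0.25, the smallest that 3 pairs allow), and 2 of the further red cell genes were called in each tissue. Depth limits the red cell genes under about 1 CPM, where 3 counts are 0.0851 to 0.108 CPM.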
